A study of Mus musculus with 8 samples.

Results

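Lrtm1 codes for a single-pass membrane protein with leucine-rich repeats outside the cell, and it was 1 of the 19465 genes counted in 8 sections of embryonic mouse diaphragm. It was found by its symbol in the gene list of the probe set, and it was taken up because its transcripts had stood out by stage, genotype and position in these same sections. Its own levels are therefore given as a description, with the value of every section, fold changes and standard errors (SE), and no p-value. The exception is the comparison of slow-rich with fast-rich muscle, which played no part in the choice.

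The sections came from 8 embryos, and each was laid flat on a Visium slide, on which transcripts are counted as unique molecular identifiers (UMIs) in round spots of 55 µm. Controls were taken at the embryonic days E14.5 (3 sections) and E18.5 (2 sections), and carried at least 1 working allele each of CaV1.1 and of β-catenin. The CaV1.1 KO embryos (1 section at E14.5 and 1 at E18.5) lacked the skeletal muscle calcium channel CaV1.1 in the whole animal through the dysgenic allele. The β-cat cKO embryo (1 section at E18.5) lost floxed β-catenin alleles through a Cre driven by the human skeletal actin promoter, so the loss concerns muscle fibers and not nerve or connective tissue. Some of the parents carried both a CaV1.1 null allele and floxed β-catenin alleles, so heterozygous alleles of the other gene may be present in any group. With 1 embryo in each mutant group, a mutant section could be tested only on the assumption that it varies as the controls do.

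In fetal muscle, motor axons form synapses along a central band of the diaphragm, where the muscle nuclei under the nerve ending make acetylcholine receptor subunits, the kinase MuSK and acetylcholinesterase. CaV1.1 is the voltage sensor that couples the electrical signal of the fiber to calcium release and contraction, and β-catenin in muscle influences where and how the nerve contacts it. Proteins with leucine-rich repeats often act in cell recognition, and Lrtm1 has been described in cultured myoblasts as a protein that binds a fibroblast growth factor (FGF) receptor and restrains the ERK kinase pathway. Genes of that pathway, other membrane proteins with leucine-rich repeats, and genes of myoblast differentiation are therefore followed beside it.

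Lrtm1 (ENSMUSG00000045776) lies on the plus strand of chromosome 14 in GRCm38, from base 29018208 to 29033645. Its longest annotated transcript has 3 exons, with the coding sequence starting within the first at base 29018567. The last exon of that transcript holds the whole 3′ untranslated region, from base 29027752 to 29033645. Another annotated transcript starts at base 29020872, in a different first exon. The gene sits within an intron of Cacna2d3, which runs on the minus strand from base 28904943 to 29721864 and codes for the calcium channel subunit α2δ-3. That intron spans bases 28982374 to 29043500, and no annotated exon of Cacna2d3 overlaps Lrtm1. The nearest other genes counted were Wnt5a, 490760 bases before it, and Selenok, 934663 bases after it.

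The 250 bases upstream of the start, from RefSeq on GRCm38.p6 (chr14:29017958-29018207, plus strand, 5′ to 3′), are shown because Lrtm1 rose with muscle genes between the stages. It did not follow them in every comparison. The capitals mark the single TAAATA, which begins 26 bases before the start.
Lrtm1 promoter: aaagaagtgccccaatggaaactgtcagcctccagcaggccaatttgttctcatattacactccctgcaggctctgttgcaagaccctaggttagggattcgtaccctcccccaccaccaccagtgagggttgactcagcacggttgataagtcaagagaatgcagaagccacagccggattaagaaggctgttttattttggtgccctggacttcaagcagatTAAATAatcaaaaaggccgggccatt

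The motifs looked for on both strands were those of myogenic, synaptic and β-catenin dependent factors. TAAATA occurred in 12.7% of the 32851 RefSeq promoters of this length. The stretch held no E-box (CANNTG, in 66.2% of promoters), no N-box of synaptic genes (CCGGAA, 12.0%), no TCF/LEF motif (CTTTGAN, 13.8%), no TATAAA (12.4%), and no full MEF2 consensus (0.508%) or CArG box (1.47%). It was 49.2% GC with 4 CpG, against medians of 52.4% and 6. With the first 50 transcribed bases included, 1 E-box (CAGCTG) appeared 21 bases into the transcript, as some E-box did in 72.3% of the longer windows. These are matches of letters and say nothing of whether a factor binds.

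Between 14179161 and 82859104 UMIs were counted per section, in 683 to 3460 spots of at least 1000 UMIs. Spots were called muscle where 9 genes of the contractile apparatus were high (491 to 3092 spots), and the center was the top 15% of them when ranked by a score of 8 endplate genes (Ache, Chrna1, Chrnd, Chrng, Etv5, Musk, Prkar1a and Ufsp1). Spots hold several cells, and spots of 1 section share an embryo, so counts were summed and sections compared. A spot with fewer muscle cells and a spot with less RNA per cell cannot be told apart. Levels are UMIs per 1000000 UMIs (CPM). Where CPM are normalized, TMM factors of edgeR were applied, which center the typical gene between sections, and where they are raw, they are a share of all UMIs. The targeted genes do not check the genotypes, since the probes need not lie at the altered part of either gene. Among markers of other cell types in muscle spots, the 4 cartilage genes summed to 895 CPM in E18.5 control 1 and to 7.12 to 56.1 in the other sections, and the 3 erythrocyte genes in the probe list to 109 to 3492. Cacna1s (CaV1.1) had 13.4 normalized CPM in the CaV1.1 KO at E14.5 against 14.95 to 18.4 in the controls, and 29.7 against 84.4 and 87.3 at E18.5. Ctnnb1 had 96.2 normalized CPM in the β-cat cKO against 97.4 and 104.6 in the E18.5 controls.

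Lrtm1 was higher in muscle spots than outside them in every section, by least in the CaV1.1 KO at E14.5. The 3 E14.5 controls held 712, 766 and 424 Lrtm1 UMIs in muscle spots and the 2 E18.5 controls 10274 and 9718, while the CaV1.1 KO held 144 at E14.5 and 3071 at E18.5, and the β-cat cKO 1181. In the controls and the β-cat cKO between 88.8% and 97.7% of all Lrtm1 UMIs lay in muscle spots, which held 67.5% to 91.5% of all UMIs. In the CaV1.1 KO the muscle spots held 72.0% of the Lrtm1 UMIs and 59.1% of all UMIs at E14.5, and 89.2% and 68.0% at E18.5. Outside muscle, raw Lrtm1 was 7.15 to 9.04 CPM in the E14.5 controls and 46.5 and 36.9 in the E18.5 controls. The CaV1.1 KO at E14.5 had 6.94 CPM in muscle (95% Poisson interval 5.85 to 8.17) and 3.90 outside (2.94 to 5.06). These intervals, like all others given here, cover counting error only.

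**Figure D1:**
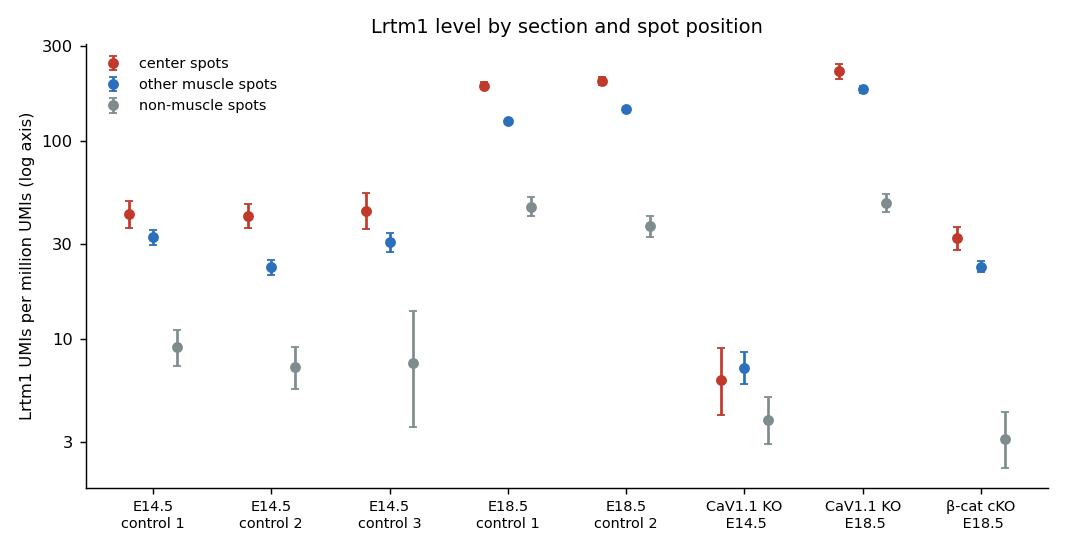
Raw Lrtm1 level (CPM, log axis) in center spots, other muscle spots and non-muscle spots of the 8 sections, with exact 95% Poisson intervals as bars. Center and other muscle lie above non-muscle in every section. The CaV1.1 KO at E14.5 (6.21 and 7.14 CPM in center and other muscle) lies far below the E14.5 controls (41.6 to 44.4 and 22.9 to 32.5). The β-cat cKO (32.2 and 23.1) lies far below the E18.5 controls (189.8 and 201 in the center, 125 and 145 in other muscle).

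Lrtm1 was higher at E18.5 than at E14.5 in control muscle. Raw levels were 34.5, 26.0 and 33.0 CPM at E14.5 and 136 and 154 at E18.5, and normalized levels 30.1, 21.3 and 26.6 against 186.7 and 211. The stages did not overlap on either scale. The fitted fold change was 7.68 (log2 2.94 ± 0.14 SE), and 96.7% of the 14832 genes tested had a lower value. Muscle transcripts as a whole rose with stage, and the 9 genes that defined muscle together made up 21642 to 27362 CPM of the muscle spots at E14.5 and 128417 and 131917 at E18.5. Counted per 10000 UMIs of those 9 genes, Lrtm1 stood at 13.003 ± 1.25 (SD, n = 3) at E14.5 and 11.1 ± 0.814 (SD, n = 2) at E18.5, so on that scale the direction turned (log2 -0.22 ± 0.21 SE). Its change between the stages was thus close to that of the summed contractile genes.

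Lrtm1 was lower in the CaV1.1 KO at E14.5 than in any other section. Its 5.74 normalized CPM compared with 21.3 to 30.1 in the 3 controls of that stage, and its raw 6.94 CPM with 26.0 to 34.5, with no overlap. The fitted level was 4.51-fold lower (log2 -2.17 ± 0.23 SE), and 1.59% of genes had a lower value. The deficit remained when Lrtm1 was set against the muscle genes, with 4.27 per 10000 muscle-gene UMIs against 13.003 ± 1.25 in the controls. The muscle genes themselves made up 16235 CPM in this section, below the 21642 of the lowest control. Spots with at least 1 Lrtm1 UMI, after each spot was thinned to 5000 UMIs, made up 3.40% of muscle spots (exact 95% interval 1.77 to 5.86), against 11.2% to 17.1% in the controls. Without thinning those shares were 20.2% and 46.3% to 62.0%. The thinned share in this KO's muscle was close to the share in its own spots outside muscle (2% of 250, interval 0.653 to 4.61), the nearest thing here to a background.

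Lrtm1 in the CaV1.1 KO at E18.5 stood near the controls of its stage, above or below them by scale. Its raw level was 188 CPM, above the 136 and 154 of the controls, and its normalized level was 178, below their 186.7 and 211. The fitted log2 difference was -0.16 ± 0.18 (SE), smaller than its error, while without scaling factors it was 0.38 and per muscle gene 1.25, so its direction depends on the scaling. Relative to the median gene Lrtm1 lay 0.16 lower on the log2 scale under each of these scalings, since the median gene moved by 0.54 and 1.40 with them. Per 10000 muscle-gene UMIs the KO held 26.4 against 11.1 ± 0.814 in the controls. The muscle genes made up 71384 CPM of this section's muscle spots, and 59.3% of its muscle spots held an Lrtm1 UMI after thinning to 5000, against 46.8% and 51.1% in the controls. Schwann cell markers (6 of 6 detected) summed to 188 CPM in these spots against 59.9 and 65.1, mesothelium markers (4 of 4) to 197 against 40.01 and 123, fibroblast markers (4 of 4) to 7425 against 4744 and 6609.7, and smooth muscle markers (4 of 4) to 189 against 308 and 312. Their part in the result was not tested.

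In the β-cat cKO, Lrtm1 was far below the controls of its stage. It had 28.9 normalized CPM against 186.7 and 211, and 24.5 raw CPM against 136 and 154. The fitted level was 6.88-fold lower (log2 -2.78 ± 0.21 SE), with 1.12% of genes lower, and it remained -2.57 without scaling factors and -2.26 per muscle gene. The 9 muscle genes still made up 105199 CPM of this section, and per 10000 of their UMIs Lrtm1 stood at 2.33 against 11.1 ± 0.814. An Lrtm1 UMI was found in 10.99% of thinned muscle spots against 46.8% and 51.1%. Fibroblast markers (all 4 of 4 detected) summed to 7393 CPM in this section and to 4744 and 6609.7 in the controls, and Schwann cell markers (6 of 6) to 78.6 against 59.9 and 65.1. Smooth muscle markers (4 of 4) summed to 568 CPM against 308 and 312. Their part in the result was not tested.

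The order of the normalized levels was CaV1.1 KO at E14.5, E14.5 controls, β-cat cKO, CaV1.1 KO at E18.5 and E18.5 controls. The β-cat cKO (28.9) lay within the range of the E14.5 controls, whose mean was 26.0 ± 4.42 (SD, n = 3). The CaV1.1 KO at E18.5 (178) lay less than 1 SE of the fit below the E18.5 controls (199 ± 17.2, SD, n = 2), and the other neighbors were separated by more than the spread. On the raw scale the last 2 places changed, with the CaV1.1 KO at E18.5 highest, and the β-cat cKO (24.5) fell just below the E14.5 controls.

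**Figure D2:**
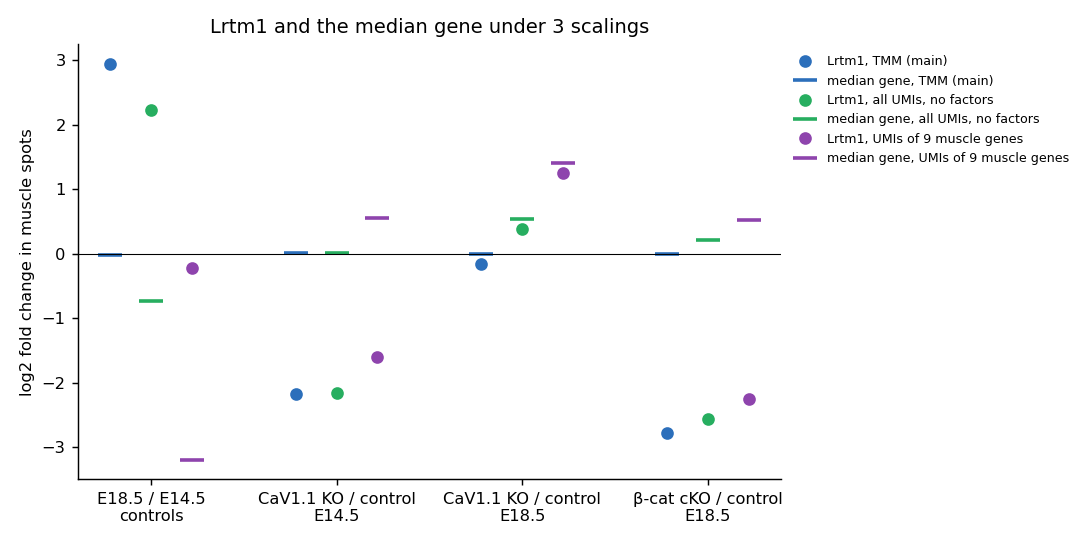
Log2 fold change of Lrtm1 (points) and of the median gene (dashes) in the 4 comparisons of muscle spots under 3 scalings, shown by color. Lrtm1 keeps its distance from the median gene throughout, while its own sign turns for stage when scaled to the 9 muscle genes, and for the CaV1.1 KO at E18.5 when no factors or the muscle genes are used.

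The host gene and the neighbors of Lrtm1 were tested in the same fit. Cacna2d3 was sparse, with 37, 40 and 14 UMIs in muscle of the E14.5 controls, 178 and 126 in the E18.5 controls, 17 and 33 in the CaV1.1 KO at E14.5 and E18.5, and 49 in the β-cat cKO. It rose with stage (log2 1.32 ± 0.30 SE, adjusted p = 0.00505 by edgeR), although it did not pass without scaling factors (0.61, adjusted p = 0.0912), and per muscle gene its direction turned (-1.82). In the mutants it had log2 -0.81 ± 0.44 (CaV1.1 KO at E14.5), -0.64 (CaV1.1 KO at E18.5) and -1.31 ± 0.42 (β-cat cKO, adjusted p = 0.0961 by edgeR), and none of them passed the test. Whether the Cacna2d3 and Lrtm1 effects differ was not tested. Wnt5a, a secreted signal, had log2 -0.09 between the stages and did not pass, and Selenok, a selenoprotein of the endoplasmic reticulum, rose by 0.63 (adjusted p = 0.00112 by edgeR). Lrtm2, the closest relative of Lrtm1, had 32 and 35 UMIs in the E18.5 control muscle, where Lrtm1 had 10274 and 9718.

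Of the 30 genes listed for the FGF receptor and ERK pathway, 29 were analysed here, and all of these passed the filter on low values in muscle. Between the stages 9 rose and 11 fell, where 65.6% of all genes were called, and the median change was -0.08 against -0.01 over all genes. Fgfrl1, a receptor that binds FGF but lacks the kinase, rose (log2 1.62 ± 0.13 SE), and Fgfr4 (-1.19 ± 0.08) and the inhibitors Spry2 and Spry4 fell (-1.05 and -1.21). Without scaling factors 3 of the 29 rose and 24 fell, where 2259 of all 14832 genes rose and 9033 fell. Scaled to the muscle genes none rose and 28 fell, where 209 of all genes rose and 13998 fell, so these changes are relative to the typical gene. None was called by edgeR in the CaV1.1 KO at E14.5, where 2.08% of all genes were, with 5 at an unadjusted p under 0.05 and 1 called by DESeq2 (median 0.04 against 0.0027 over all genes). At E18.5 the CaV1.1 KO had 4 higher and 7 lower, with 25.7% of all genes called and a median of -0.14. Without scaling factors 16 rose and 2 fell, with a list median of 0.40 where that of all genes was 0.54. Etv4, a transcription factor induced by ERK, was among the lower (-1.09), and Dusp4, a phosphatase of ERK, among the higher (1.20). In the β-cat cKO, where 8.80% of all genes were called, 2 of the 29 fell and the median was -0.08. One of them was Fgfrl1, with log2 -2.92 ± 0.21 (adjusted p = 0.000956 by edgeR). Fgfrl1 stood at 134.3 normalized CPM there against 995.2 and 1036 in the controls, and also fell under both other scalings (-2.70 and -2.39). Without scaling factors 7 members rose in the β-cat cKO and 2 fell, with a list median of 0.14 where that of all genes was 0.21.

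Of the 59 other membrane proteins with leucine-rich repeats, 58 passed the filter on low values. With stage 11 rose and 21 fell, which is 55.2% of the list where 65.6% of all genes were called, and the median of -0.49 lay below that of all genes. Without scaling factors 6 rose and 41 fell, where 2259 of all 14832 genes rose and 9033 fell. Scaled to the muscle genes 1 rose and 55 fell, where 209 of all genes rose and 13998 fell. The neurotrophin receptor Ntrk2 and the adhesion protein Amigo1 rose (log2 1.42 and 1.104), and Lrrn2 and Ntrk3 fell (-1.28 and -0.97). The CaV1.1 KO at E14.5 had 2 higher members and none lower, where 0.533% of all genes were higher and the list had a median of 0.25. These were Tpbg (log2 1.33 ± 0.14, adjusted p = 0.00874 by edgeR) and Lrrn1 (0.69). At E18.5 the CaV1.1 KO had 13 higher, among them Ntrk2, Flrt2 and Ntrk3 (0.96, 0.77 and 0.74), and 3 lower, among them Slitrk4 (-0.91), which together is 27.6% of the list where 25.7% of all genes were called. The β-cat cKO had 2 higher (Lrrn2 and Ntrk2, 0.73 and 0.60) and 2 lower, of which Lrig1 was the more abundant (-0.48), which is 6.90% of the list where 8.80% of all genes were called. The medians of the list were 0.27 and 0.02 in these 2 sections. Without scaling factors 31 members rose and 1 fell in the CaV1.1 KO at E18.5, and 7 rose and 1 fell in the β-cat cKO. All genes shifted upward there, with medians of 0.54 and 0.21, and the list had medians of 0.81 and 0.24.

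Myoblast differentiation and fusion was followed in a list of 15 genes, of which 14 were analysed here, and all of these passed the filter on low values. With stage 7 rose and 5 fell, where 65.6% of all genes were called, among them Ckm (muscle creatine kinase, log2 4.68 ± 0.21), perinatal myosin Myh8 (3.65) and the myogenic factor Myf6 (2.06) on one side and the fusion protein Mymx (-1.87) on the other. Without scaling factors 4 rose and 8 fell, where 2259 of all 14832 genes rose and 9033 fell. Scaled to the muscle genes 2 rose and 12 fell, where 209 of all genes rose and 13998 fell. The 2 that fell in the CaV1.1 KO at E14.5, where 1.54% of all genes did, were Ckm (-3.54 ± 0.31, adjusted p = 0.00577) and Myf6 (-1.47 ± 0.19, adjusted p = 0.0162, both by edgeR), the former at 88.4 normalized CPM against 869 to 1310 in the controls. At E18.5 the CaV1.1 KO had 2 higher and 4 lower, where 25.7% of all genes were called, with Mymx higher (1.11) and embryonic myosin Myh3, Ckm and Myh8 lower (-1.86, -1.31 and -1.18). In the β-cat cKO 2 fell, Pax7 (-0.49), the marker of muscle stem cells, and Mef2a (-0.49), where 8.80% of all genes were called. But without scaling factors 2 rose and none fell, with a list median of 0.08 where that of all genes was 0.21. The medians over the list were 0.31 for stage, -0.17 and -0.31 for the CaV1.1 KO at E14.5 and E18.5, and -0.14 for the β-cat cKO.

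Within the muscle of the controls, Lrtm1 was higher in the center than elsewhere. At E14.5 the center held 42.5, 41.6 and 44.4 raw CPM and the other muscle 32.5, 22.9 and 30.8, and at E18.5 the center held 189.8 and 201 and the other muscle 125 and 145. The center was higher in 5 of 5 control sections, and the 2 regions did not overlap within a stage. The fitted center effects were 1.56-fold at E14.5 (log2 0.64 ± 0.09 SE) and 1.35-fold at E18.5 (0.43 ± 0.04), with 96.7% and 94.0% of genes lower. At E14.5 the whole list of muscle genes was also higher in the center within each section, at 25094 to 29706 CPM against 20849 to 26809, whereas at E18.5 it was lower there, at 118105 and 126155 against 130369 and 133034. Schwann cell markers moved with the center too (289 to 356 CPM against 181 to 251 at E14.5, and 99.96 and 111 against 52.3 and 56.2 at E18.5). Their part in the result was not tested.

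**Figure D3:**
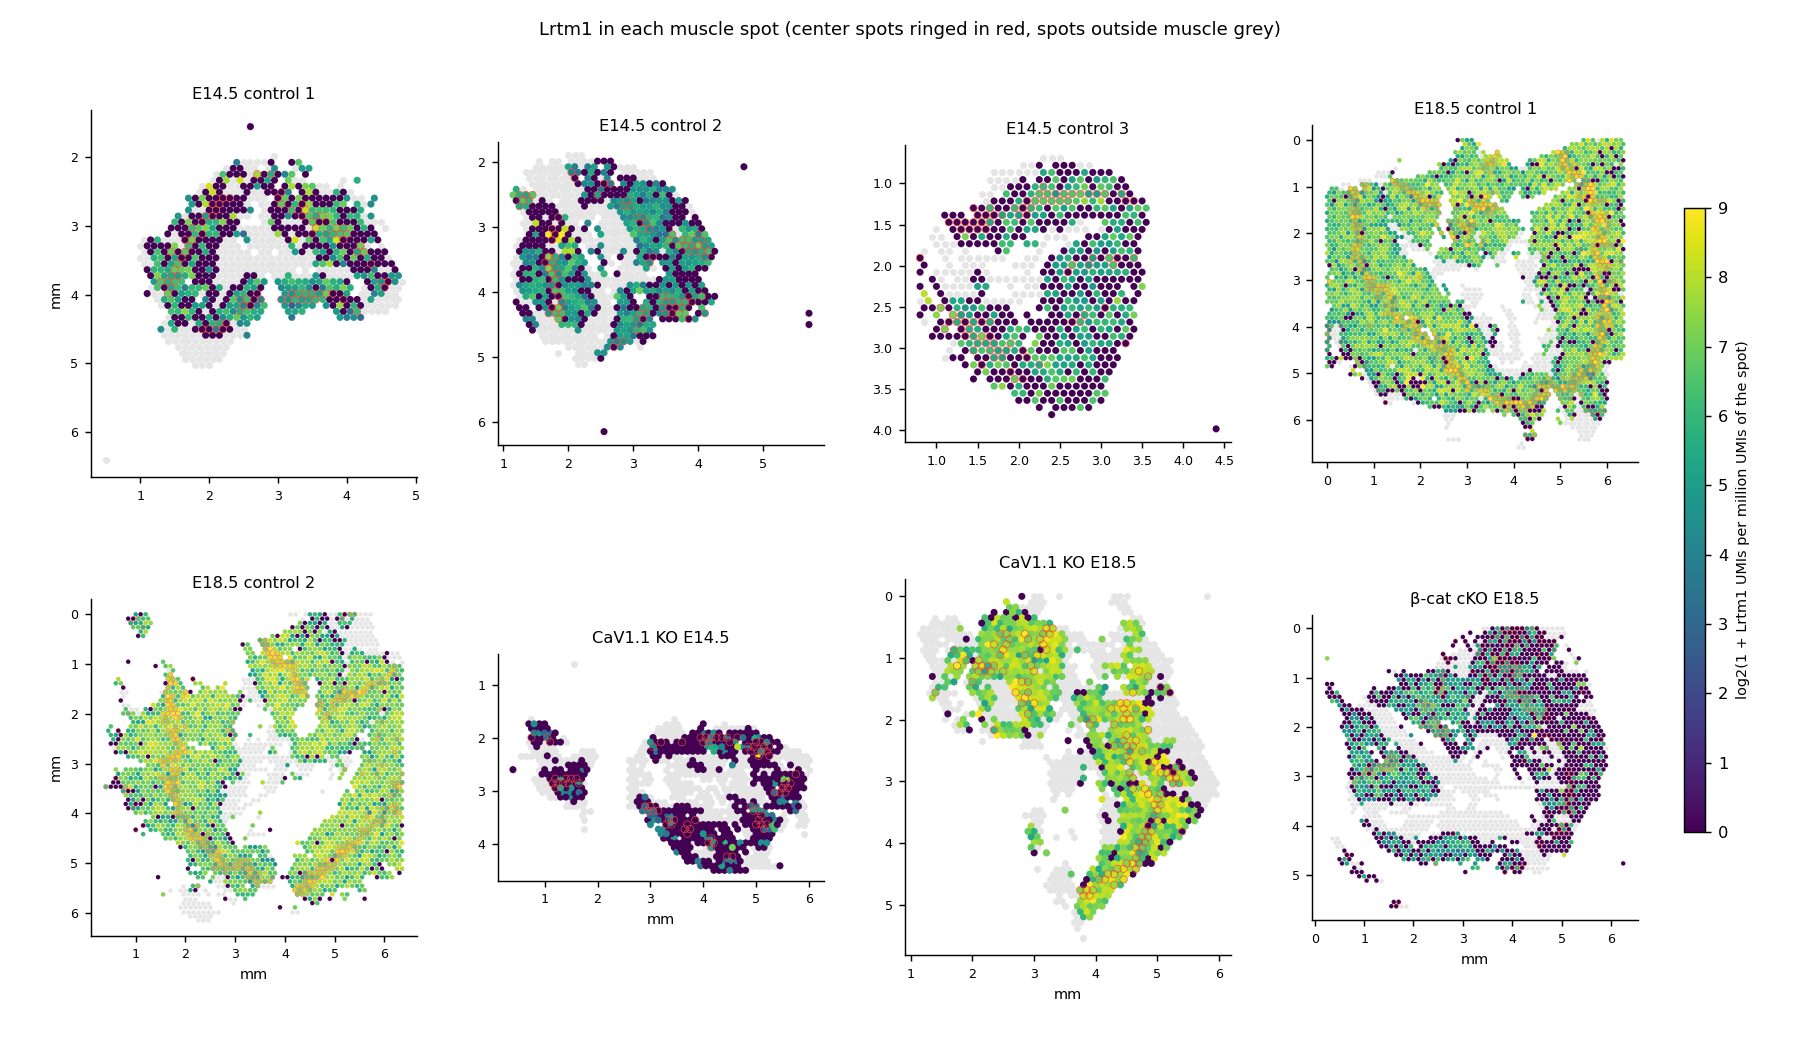
Lrtm1 in each muscle spot of the 8 sections as log2(1 + CPM), with center spots ringed in red, spots outside muscle in grey and both axes in mm. In the E18.5 controls the center forms a thin line through each muscle sheet along which Lrtm1 is somewhat higher, on top of a level that is high throughout the muscle.

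In 2 of the 3 mutant sections the center was higher as well. The center is the top 15% of muscle spots by score in every section, so it need not be the same place in each genotype. In the CaV1.1 KO at E18.5, Chrna1 had 140 normalized CPM in the other muscle, against 69.9 and 65.5 in the E18.5 controls. Raw CPM in the CaV1.1 KO at E18.5 were 224 in the center and 182 in the other muscle (log2 0.35 ± 0.09 SE), and in the β-cat cKO 32.2 and 23.1 (0.39 ± 0.12). The differences from the control effect were -0.08 ± 0.10 and -0.04 ± 0.13. Each changed sign under another definition of the center. This was 25% of muscle spots for the CaV1.1 KO and the spots farthest from other tissue for the β-cat cKO. Over all muscle spots, Pearson r of Lrtm1 with the endplate score was 0.07 in the β-cat cKO. It was 0.24 and 0.25 in the E18.5 controls and 0.23 in the CaV1.1 KO at E18.5. These r were not adjusted for the fewer Lrtm1 UMIs in the β-cat cKO. The CaV1.1 KO at E14.5 held 6.21 CPM in the center (95% Poisson interval 4.13 to 8.98, 28 UMIs) and 7.14 in the other muscle (5.90 to 8.56), with a center effect of -0.13 ± 0.31 and a difference from the controls of -0.78 ± 0.31. With the center taken as 25% of muscle spots, that difference was -0.42 ± 0.26, and the main value rests on 28 center UMIs of 1 section. Chrna1, one of the genes that chose the center, had 343 normalized CPM in its center spots and 180.0 in its other muscle.

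Read over the whole range of the endplate score, the E18.5 controls had a step and not a slope. In 5 equal bins of muscle spots, from the lowest to the highest score, raw Lrtm1 was 130.2, 125, 128, 121 and 171 CPM in E18.5 control 1 and 139, 144, 147, 149 and 188 in control 2. The excess thus lay in the highest bin. At E14.5 the values rose over the range, most in control 2, from 10.4 to 38.6 CPM, and the CaV1.1 KO at E18.5 also rose steadily, from 158 to 216. The β-cat cKO had 24.6, 26.9, 21.8, 19.6 and 29.5 CPM, and the CaV1.1 KO at E14.5 stayed between 4.46 and 9.45.

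Lrtm1 was also read by distance from the nearest center spot. The first bin is the center spots themselves, so its excess is the one given above, and only the rings beyond add to it. In E18.5 control 1 raw Lrtm1 was 189.8 CPM in center spots, 131 at 50 to 150 µm from the nearest of them, and 111 beyond 500 µm. In control 2 it was 201, 152 and 134. The drop thus came within the first ring of spots. A more gradual fall was seen in the CaV1.1 KO at E18.5, with 224, 203, 189.5 and 155 CPM in the center and the next 3 rings, and 139 beyond 500 µm. In the E14.5 controls the outermost bins held 13.5 to 29.3 CPM, below the 41.6 to 44.4 of the center.

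**Figure D4:**
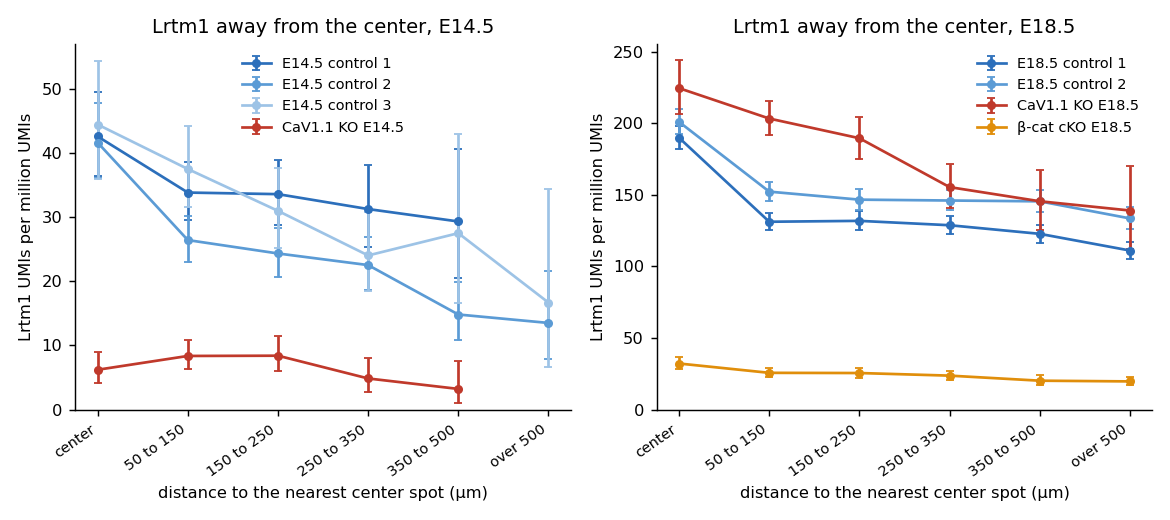
Raw Lrtm1 CPM by distance in µm from the nearest center spot, with 1 line per section, E14.5 and E18.5 in separate panels, and 95% Poisson intervals as bars. The E18.5 controls drop from 189.8 and 201 CPM in the center to 131 and 152 in the first ring and change less from there on, and the CaV1.1 KO at E18.5 descends over the first 3 rings.

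Raw Lrtm1 was also lower at the edge of the muscle. Muscle spots within 150 µm of a spot outside muscle held 28.3, 19.9 and 16.5 raw CPM in the E14.5 controls and 85.9 and 85.3 in the E18.5 controls, and those beyond 350 µm held 38.3, 31.3 and 35.4, and 149 and 168. The β-cat cKO went from 13.5 to 30.8 CPM over the same range. From the edge inward the CaV1.1 KO held 160, 211, 215 and 191 CPM at E18.5, and 4.47, 9.14 and 5.77 at E14.5. Per 10000 muscle-gene UMIs Lrtm1 rose from the nearest to the farthest bin in every control (8.19 to 11.2 and 9.25 to 12.1 at E18.5). It also rose in the β-cat cKO (1.88 to 2.68), but it fell in the CaV1.1 KO at E18.5 (30.1 to 20.8). A lower level in the muscle cells of the edge and fewer muscle cells in its spots cannot be told apart. Over neighboring muscle spots Lrtm1 was only weakly clustered after thinning, with a Moran's I of 0.01 to 0.07 in the controls, against 0.05 to 0.17 for Chrna1.

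Most genes of the FGF receptor and ERK list did not pass the test between the center and the other muscle, while Map2k1, Dusp6, Etv4 and Spry4 were higher in the E18.5 center. Of the 28 members outside the endplate genes, 10 were higher and 2 lower in the E14.5 center, where 18.8% of all genes were called, and 7 were higher and 2 lower in the E18.5 center, with 12.2% called. With the center taken as the muscle spots farthest from other tissue, none of the 28 passed at E14.5 and 2 did at E18.5. That setting called 154 of all genes at E14.5, against 2697 in the main setting, and also far fewer at E18.5. The medians of the list were 0.04 and -0.03, against -0.03 and -0.04 over all genes. Map2k1, the kinase that activates ERK, had a center effect of log2 0.66 ± 0.05 at E14.5 and 1.68 ± 0.05 at E18.5, and the ERK phosphatase Dusp6 one of 0.70 ± 0.05 and 1.90 ± 0.05. The E18.5 center effects of Etv4 and Spry4 were 1.90 ± 0.10 and 0.65 ± 0.07. Dusp6 stood at 290.0 and 283 normalized CPM in the E18.5 center against 76.4 and 76.6 in the other muscle. The CaV1.1 KO at E18.5 had center effects of Map2k1 and Dusp6 that were smaller than in the controls by 0.39 ± 0.10 and 0.68 ± 0.11 (adjusted p = 0.0119 and 2.81e-05 by edgeR). In that comparison 2.86% of all genes were called, and DESeq2 called none of the list. In the β-cat cKO those of Map2k1, Dusp6 and Etv4 were smaller by 0.86 ± 0.09, 0.61 ± 0.09 and 1.97 ± 0.21, with 1.11% of genes called (2 of the list by DESeq2). In both mutants the center effect of Fgfrl1 was larger than in the controls, by 0.39 ± 0.09 and 0.36 ± 0.10. At E14.5 none of the 28 differed between the CaV1.1 KO and the controls by edgeR or DESeq2, with 5 at an unadjusted p under 0.05 and 0.216% of all genes called.

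Of the myoblast genes 12 of 14 were higher in the E14.5 center and none lower (median 0.34, with 8.76% of all genes higher), among them Myf6 (log2 0.66 ± 0.05), Myf5 (0.56 ± 0.07) and Mymx (0.54 ± 0.04). At E18.5 2 were higher (Myh3, 0.57, and Mymx, 0.43) and 2 lower (Ckm, -0.30, and Myh8, -0.26), where 12.2% of all genes were called. Of the 54 leucine-rich repeat proteins tested, 4 were higher and 10 lower in the E14.5 center. That is 25.9% of the list where 18.8% of all genes were called, with Amigo1 higher (0.64) and Slitrk4 and Ntrk2 lower (-1.22 and -1.01). In the E18.5 center 3 were higher and 5 lower by edgeR, which is 14.8% of the list where 12.2% of all genes were called. Again Slitrk4 (-0.78) and Ntrk2 (-0.33) were lower. DESeq2, which called fewer genes in that center, called none of the list. Cacna2d3, the host gene, had a center effect of 0.68 ± 0.24 at E18.5 (adjusted p = 0.0478 by edgeR), from few UMIs.

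Fiber type was read from the contrast of 6 slow with 5 fast contractile genes, and muscle spots were cut by it into 3 equal bins, called slow-rich, middle and fast-rich. In the E18.5 controls raw Lrtm1 was 133 and 144 CPM in slow-rich spots, 139 and 157 in the middle and 135 and 163 in fast-rich spots. The slow-rich spots were thus lower in both, with Poisson intervals that overlap in control 1 (128 to 137 and 130.3 to 139.8) and do not in control 2 (139 to 149.5 and 157 to 168). The fitted difference was log2 -0.22 ± 0.06 (0.859-fold, adjusted p = 0.000819 by edgeR), in a comparison where 18.4% of all genes were called. With 1 residual degree of freedom, that p rests mostly on a spread shared over all genes and not on that between the control embryos. The call was lost without scaling factors (-0.10, adjusted p = 0.132), by DESeq2 (-0.24, adjusted p = 0.55) and without the section as a block (-0.23, adjusted p = 0.757), and with 1 control left out the value ranged from -0.32 to -0.14. Center spots made up 22.2% of slow-rich spots and 9.89% and 9.82% of fast-rich spots. With center spots left out of the bins, the direction and the call were kept.

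From slow-rich to fast-rich spots Lrtm1 was in the order of E18.5 control 2 in both mutant sections of that stage, and not in that of control 1, whose middle bin was highest. The CaV1.1 KO at E18.5 held 172, 177 and 215 CPM from slow-rich to fast-rich (log2 -0.60 ± 0.09 SE), and the β-cat cKO 16.8, 22.7 and 32.2 (-1.27 ± 0.13). These are values of single sections, and their difference from the controls was not tested. Ckm, which had no part in the bins, also rose from slow-rich to fast-rich, from 7742 to 15033 CPM in the CaV1.1 KO and from 11483 to 21740 in the β-cat cKO. In the controls it went from 17616 to 22130 and from 16513 to 20985. The part of such muscle transcripts in the Lrtm1 values was not tested. Slow myosin Myh7 stood at 346 CPM in slow-rich spots of the β-cat cKO against 3448 and 4289 in the controls, so the bins do not hold the same fibers across genotypes. Of the FGF and ERK list 6 members were higher and none lower in slow-rich spots of the controls, where 8.91% of all genes were higher, among them Etv4 (0.76), Etv5 (0.65) and Dusp6 (0.34). Of the 55 leucine-rich repeat proteins tested 10 were higher, among them Tpbg (0.79) and Lrrn4 (0.73), and 6 lower, among them Lrrc38 (-0.70), where 9.44% of all genes were lower. DESeq2 called 1 of each list.

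**Figure D5:**
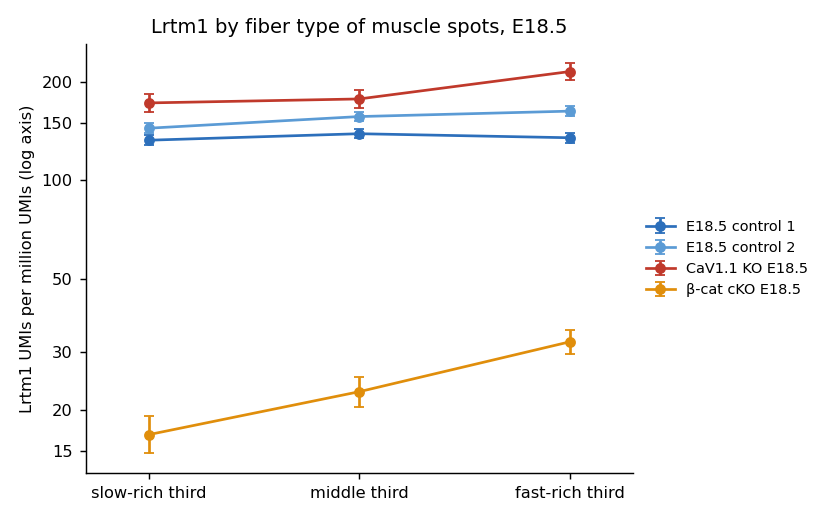
Raw Lrtm1 CPM in the slow-rich, middle and fast-rich bins of muscle spots in the 4 E18.5 sections (log axis), with 95% Poisson intervals as bars. The fast-rich bin is highest in E18.5 control 2 and both mutants, and in E18.5 control 1 the 3 bins lie between 133 and 139 CPM.

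The level of Lrtm1 was compared from spot to spot with that of other genes. Over the muscle spots of each of the 5 control sections, the 10 with the highest mean Pearson r among 8388 genes were Ckmt2 (0.26), Atp2a1 (0.24), Myh8 (0.23), Myl1, Arhgap36, Eno3, Acta1, Myoz1, Tpm2 and Ckm (0.22). The median gene had -0.01. The spots share depth and muscle content, and 7 of the 10 were also in the first 10 by Spearman's rho. Of these 10 genes 6 were in the first 10 at E14.5 alone and 2 at E18.5 alone. Ckmt2 and Ckm are creatine kinases of the mitochondrion and the cytosol, Atp2a1 is the calcium pump of fast fibers, and Myl1, Acta1, Tpm2 and Myoz1 belong to the sarcomere. Myl1 and Acta1 were among the genes that defined muscle.

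The direction of Lrtm1 was not that of these 10 genes in every comparison. All 10 were higher in the E14.5 center (log2 0.17 to 0.64, where 8.76% of all genes were), as was Lrtm1 (0.64). In the E18.5 center 9 of the 10 were lower and none higher (-0.34 to -0.09 over the 10, where 7.82% of all genes were lower), while Lrtm1 was higher (0.43). Of the 10 genes 4 fell in the CaV1.1 KO at E14.5, Ckm, Ckmt2 (-2.84 ± 0.35), Myoz1 (-2.25 ± 0.31) and Arhgap36 (-2.01 ± 0.24), where 1.54% of all genes were lower, beside Lrtm1 at -2.17. All 10 fell in the CaV1.1 KO at E18.5 (-1.70 to -1.03), where 15.2% of all genes were lower, beside -0.16 for Lrtm1. Without scaling factors 9 of the 10 fell, and scaled to the muscle genes 1 did, with 8 of the 10 above 0. The median of all genes was 0.54 and 1.40 under these scalings. In the β-cat cKO 1 of the 10 fell, Ckmt2 (-1.43 ± 0.31, adjusted p = 0.0327 by edgeR), where 5.62% of all genes were lower, beside -2.78 for Lrtm1. These comparisons share their control sections, and the genes were chosen from the controls, so the center values of the 10 in the controls are a description. In slow-rich spots of the E18.5 controls 8 of the 9 that had not defined them were lower (-0.51 to -0.23 over the 9, where 9.44% of all genes were lower), beside -0.22 for Lrtm1. The 9 lay between -1.42 and -0.75 in the CaV1.1 KO at E18.5 (median -1.08), beside -0.60 for Lrtm1. In the β-cat cKO they lay between -1.43 and -0.78 (median -1.11), beside -1.27.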

How the data were processed

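Sections of 5 µm from fixed diaphragms were assayed with mouse Visium probes, per the labels and methods. The authors deposited raw UMI counts per gene and spot, made with Space Ranger on mm10 (version 2.0.0 in 3 file headers, 2.0.1 in 5), and the counts were used as deposited. UMIs come from probe pairs, so a level is not per transcript length. Spots under 1000 UMIs were left out, and no doublet caller applies to spots. Muscle was cut by Otsu's threshold on 9 genes. Of 4114 distinct spot barcodes, 6 occurred in all sections, which belong to the slide layout. UMIs were summed per section and region and fitted with edgeR 4.0.16 (R 4.3.3) by its quasi-likelihood test, after TMM and filterByExpr, with p adjusted by Benjamini-Hochberg and calls at 0.05: muscle by group over 8 sections, and center and fiber type effects within group with the section as block. The p-values rest on the spread between embryos, 1 section each, which edgeR steadies by sharing it over all genes. The muscle and center fits each left 3 residual degrees of freedom and the fiber type fit 1. A p thus reflects the shared spread more than that of the gene itself. Alternatives were DESeq2 1.42.0, other scalings, no filter on low counts, stricter spots, other definitions of muscle and center, the fits with or without a block, and each control left out. The fits were tested on simulated counts first. Spots were scored in Python 3.11.15.

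Lrtm1 and the lists were chosen with earlier results of these data known. Genes named are the targeted genes, the host and nearest genes, the 10 with the highest mean within-section Pearson r with Lrtm1 in the controls (log-normalized, in at least 20% of muscle spots of each), and up to 4 called members of each list with the largest change and a mean log2 CPM of at least 3. One planned comparison of muscle areas and some members are not reported here. Genes that defined a region were left out of its counts. Members named beyond this rule were picked after their values were seen (Lrtm2, and Dusp6 per section).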

Additional observations from a re-analysis of the deposited data

Results flagged for a closer look

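The values here stand out because a pair of groups moved in opposite directions in every sample, and none of these differences was tested. In raw CPM of muscle spots the CaV1.1 KO lay below the controls at E14.5 (log2 -2.17) and above them at E18.5 (0.38), with 1 KO section at each stage. Scaled to the 9 muscle genes the signs were opposite too (-1.60 at E14.5 and 1.25 at E18.5). On normalized CPM the KO at E18.5 lay below both controls, so the opposite sign depends on the scale.

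The center lay above the other muscle in the E14.5 controls 1, 2 and 3 (log2 0.39, 0.86 and 0.53) and below it in the CaV1.1 KO of that stage (-0.20), where the center held 28 Lrtm1 UMIs.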

How the results depend on the processing

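The direction and size of the Lrtm1 differences in muscle depended on the scaling. Without scaling factors, an alternative chosen after seeing the data, the log2 value was 2.22 for stage and 0.38 for the CaV1.1 KO at E18.5, which reversed, and scaled to the 9 muscle genes it was -0.22 for stage (reversed), -1.60 for the CaV1.1 KO at E14.5, 1.25 for the CaV1.1 KO at E18.5 (reversed) and -2.26 for the β-cat cKO. By construction these scalings shift all genes together, and the genes called higher and lower went from 4930 and 4796 to 2259 and 9033 (no factors) and 209 and 13998 (muscle genes) for stage, from 79 and 229 to 94 and 261 and to 4783 and 156 for the CaV1.1 KO at E14.5, from 1568 and 2251 to 7243 and 752 and to 12366 and 102 at E18.5, and from 471 and 834 to 2258 and 568 and to 3652 and 234 for the β-cat cKO. Over all spots the values were -0.49 (CaV1.1 KO at E18.5) and -3.09 (β-cat cKO). Of the alternative values for the results on Lrtm1, 136 kept their direction and their side of the threshold or moved by less than the spread, 29 moved by more, 7 reversed and 3 lost the call. The cause of these changes was not tested. With the center as the muscle spots farthest from other tissue (by distance), the center effect at E14.5 was 0.16. The difference in center effect of the CaV1.1 KO at E14.5 was -0.42 with a center of 25%, -0.46 from Chrna1 and Chrnd, and -0.24 by distance. For the CaV1.1 KO at E18.5 it was 0.030 with 25% (reversed), and for the β-cat cKO -0.30 from Chrna1 and Chrnd and 0.48 by distance (reversed). The slow-rich effect lost its call by DESeq2 (-0.24), without scaling factors (-0.10), and with no replicate block (-0.23, where the block is the section). Over all genes, DESeq2 called 721 in the CaV1.1 KO at E14.5 (308 by edgeR), 871 and 220 in the E14.5 and E18.5 centers (2697 and 1756), 1, 30 and 8 in the 3 differences in center effect (31, 411 and 159) and 273 for fiber type (2629). By distance the centers had 154 and 188, and the differences 7, 33 and 7. No filter on low counts gave 536 in the CaV1.1 KO at E14.5 and 55 in its difference in center effect.

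Shares of muscle spots with an Lrtm1 UMI moved with depth. Thinned to 10000 UMIs they were 31.9%, 20.8% and 25.8% in the E14.5 controls, 72.4% and 73.5% in the E18.5 controls, 80.9% in the CaV1.1 KO at E18.5 and 20.01% in the β-cat cKO. Not thinned they were 51.7%, 62.0% and 46.3%, 90.7% and 93.8%, 90.2%, and 43.0% in the same order, and 20.2% in the KO at E14.5. Per 10000 muscle-gene UMIs the log2 ratio of the highest to the lowest of 5 bins of the endplate score was 1.35 in E14.5 control 2, 0.60 in E18.5 control 1 and -0.22 in the CaV1.1 KO at E14.5 (reversed).

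With 1 control left out at a time, a lone section being assumed to vary like the others, the values ranged from 2.81 to 3.06 (stage), -2.31 to -2.05 (CaV1.1 KO at E14.5), -0.24 to -0.07 (CaV1.1 KO at E18.5) and -2.87 to -2.69 (β-cat cKO). Center effects ranged from 0.47 to 0.78 (E14.5) and 0.39 to 0.47 (E18.5), and their differences from -0.91 to -0.59, -0.12 to -0.03, and -0.084 to 0.0034, the last reversed without E18.5 control 1. The slow-rich effect ranged from -0.32 to -0.14, without a test. Without E14.5 control 3, calls fell from 1305 to 576 in the β-cat cKO, and from 308 to 65 in the CaV1.1 KO at E14.5. Without E18.5 control 1 they fell from 1756 to 509 in the E18.5 center, and from 411 to 78 and 159 to 75 in the differences of the 2 mutants there.

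The replicate numbers of the controls are only names, and deviations of same-numbered sections correlated at -0.18 and -0.23 over 14832 genes. A replicate block on them gave 2.97 for stage, -2.22 (E14.5) and -0.24 (E18.5) for the CaV1.1 KO, and -2.86 for the β-cat cKO, and the calls went from 1305 to 81 for the β-cat cKO, and to 0 for the CaV1.1 KO at E14.5. With no replicate block, where the block is the section, calls went from 1756 to 129 for the E18.5 center and to 0 for the 3 differences in center effect (from 31, 411 and 159) and for the slow-rich effect (from 2629).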
